A study of Homo sapiens with 12 samples.

Results

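The 45 genes described here encode the machinery that copies DNA and supplies its building blocks: proteins that license replication origins, the replicative helicase, the polymerases with their clamp and clamp loader, the enzymes that join lagging-strand fragments, the enzymes of deoxynucleotide supply and the factors that rebuild chromatin behind the fork. They were chosen by name, with earlier results of these data known, and all 45 were found among the 10945 genes with a symbol in the count table. The study measured mRNA in HepG2, an established human liver cancer line (genotype WT), by QuantSeq, which counts reads near the 3′ ends of polyadenylated transcripts. Cells were seeded in EMEM and moved after 24 h to EMEM, to DMEM with low glucose (LGDMEM), to DMEM with high glucose (HGDMEM) or to Plasmax, whose composition follows that of human plasma, each with 10% heat-inactivated serum. The medium was renewed at 48 h and cells were harvested at 96 h, with 3 libraries per medium and 12 in all. Whether the libraries of a medium come from separate cultures is not stated in the labels, and the spread behind each p-value may thus be technical only.

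In a dividing cell the origin recognition complex, CDC6 and CDT1 load the MCM helicase onto DNA in G1, and the helicase is switched on in S phase by CDC45 and the GINS complex. Polymerase alpha with primase starts each strand, the clamp PCNA is then loaded by replication factor C, and polymerases epsilon and delta extend the leading and lagging strands. Many of these genes are transcribed around the G1/S transition under the control of E2F transcription factors, and their mRNA is therefore commonly read as a sign of proliferation. In bulk RNA a smaller share of cells in S phase and less of each mRNA per cell cannot be told apart.

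Deposited counts summed to between 4131093 and 6015796 per library, of which 3995365 to 5840057 fell on genes with a symbol. Values are given in CPM, counts scaled to a common library size, and a gene was called where edgeR's quasi-likelihood test over all 10945 genes gave an adjusted p below 0.05. LGDMEM 3 stood apart from the other 11 libraries on the second principal component of log2 CPM (−51.81 against −11.01 to 14.73). The medians of LGDMEM comparisons and the number of genes called for Plasmax against LGDMEM are given below with and without it. Counts of genes without overlap, counts by role and counts at an unadjusted p include it. All 9 hepatocyte markers examined, ALB among them, were in the table. Of 8 leukocyte markers 3 were present, LYZ making 99.6% of their sum, and of 9 endothelial and stromal markers 2. PTPRC, CD3E, PECAM1 and VWF were among those not listed.

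Replication genes were lower in Plasmax than in each of the other media. Summed over the 45 genes, the level was 3188 ± 463 CPM in EMEM, 2618 ± 969 in LGDMEM, 3137 ± 313 in HGDMEM and 1262 ± 59.9 in Plasmax (SD, n = 3). The Plasmax libraries lay between 1195 and 1308 CPM, below the lowest of the other 9, which was LGDMEM 3 at 1676 CPM. Against EMEM, 38 of the 45 genes were called lower and 0 higher, where 12.1% of all genes tested were called lower and 10.0% higher. Against HGDMEM 36 were called lower and 0 higher, beside 14.1% and 12.8% of all genes. Against LGDMEM 31 were called lower and 0 higher, beside 11.7% and 9.48% of all genes. Calls in either direction made up 22.1%, 26.9% and 21.2% of all genes against EMEM, HGDMEM and LGDMEM. The median log2 fold change of the 45 genes was −1.34 against EMEM, −1.12 against LGDMEM and −1.37 against HGDMEM, while that of all genes lay between 0.00 and 0.02. These comparisons share the Plasmax libraries.

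Every Plasmax library was below every library of EMEM in 39 of the 45 genes (20.2% of all genes), of LGDMEM in 26 (18.0%) and of HGDMEM in 41 (21.2%). In 26 of the 45 genes each Plasmax library was below each of the other 9 libraries, which held for 11.3% of all genes. A fold of at least 2 was reached by 33 of the 38 called genes against EMEM, a share that was not computed for all genes. Tested over the 4 media together, 35 of the 45 genes differed, where 22.9% of all genes did. The count against LGDMEM depended on which LGDMEM library was left out: it was 36 without LGDMEM 3, 27 without LGDMEM 2 and 19 without LGDMEM 1. The median log2 fold change against LGDMEM was −1.36 without LGDMEM 3 and −0.76 without LGDMEM 1. Other values that moved with Plasmax included the share of counts on rows without a symbol, at 3.41 to 3.71% in Plasmax and 2.92 to 3.37% in the other media, the share of counts on mitochondrial transcripts, at 12.3 to 14.1% in Plasmax and 9.80 to 12.3% in the other media, and the summed hepatocyte markers, at 12262 to 13850.3 CPM against 21353 to 26716 CPM. Of the 9 hepatocyte markers 6 were called lower and 1 higher than in EMEM. The summed leukocyte markers were at 1966 to 2194 CPM in Plasmax, 2657 to 3294 in EMEM, 2122 to 2885 in LGDMEM and 2710.2 to 3159 in HGDMEM, LGDMEM 1 lying within the Plasmax range. The summed endothelial and stromal markers were at 10.5 to 11.8, 11.2 to 12.8, 4.80 to 14.9 and 3.64 to 12.3 CPM in that order, without separation. The sum joins 2 genes that went opposite ways. In Plasmax 1 was called lower than in EMEM, LGDMEM and HGDMEM (−1.59, −1.74 and −1.38) and lay below the other 9 libraries. The other had log2 fold changes of 0.78, 1.26 and 2.75 and was called higher only against HGDMEM. The part of these in the result was not tested.

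**Figure D1:**
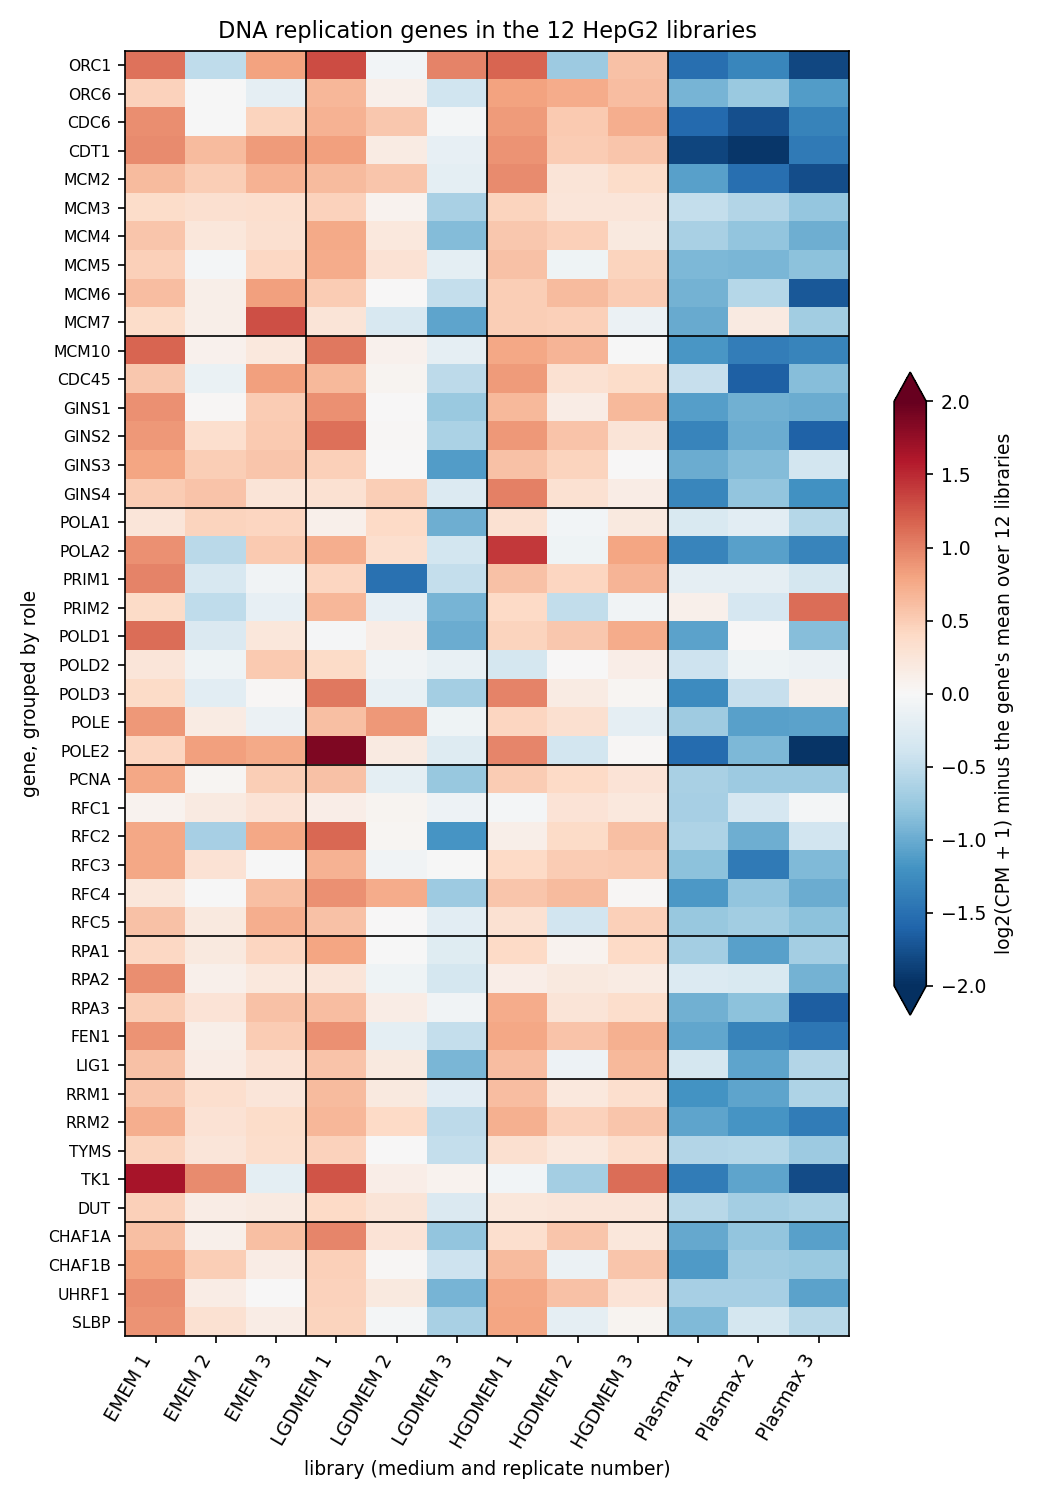
Level of the 45 replication genes (rows, grouped by role, black lines between groups) in each of the 12 libraries (columns), as log2(CPM + 1) minus the gene's own mean over the 12 libraries, with red above and blue below that mean. The 3 Plasmax columns are blue for most genes, PRIM2 being red in Plasmax 3, and LGDMEM 3 is paler or bluer than LGDMEM 1 for most genes.

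Origin licensing genes were lower in Plasmax almost throughout, with 10 of 10 called lower than in EMEM, 9 lower than in LGDMEM and 9 lower than in HGDMEM. MCM2, a subunit of the hexameric helicase, was at 262, 237 and 272 CPM in the EMEM libraries, 263, 248 and 146 in LGDMEM, 326, 201 and 216 in HGDMEM and 78.7, 58.4 and 48.4 in Plasmax. Every Plasmax library was below every other library, and the log2 fold change was −2.06 (SE 0.22, adjusted p = 3.92e-06) against EMEM, −1.82 against LGDMEM and −2.003 against HGDMEM. CDC6, the ATPase that brings the helicase to the origin, was at 94.4, 48.8 and 67.5 CPM in the EMEM libraries, 80.01, 72.1 and 47.8 in LGDMEM, 90.02, 70.8 and 81.6 in HGDMEM and 16.1, 13.8 and 18.8 in Plasmax. It too was lower in Plasmax without overlap, with a log2 fold change of −2.11 (SE 0.24, adjusted p = 6.56e-06) against EMEM. CDT1, its partner in helicase loading, had log2 fold changes of −2.61, −2.11 and −2.45 against EMEM, LGDMEM and HGDMEM, and its Plasmax mean was 16.4 ± 3.53 CPM against 100.2 ± 10.7 in EMEM (SD, n = 3).

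ORC1, the largest subunit of the origin recognition complex, had the largest log2 fold change of the group at −2.91 (SE 0.68, adjusted p = 0.00468) against EMEM. It was a low-count gene, at 11.2, 3.03 and 9.05 CPM in the EMEM libraries, 13.1, 4.52 and 10.4 in LGDMEM, 11.8, 2.48 and 7.61 in HGDMEM and 1.03, 1.33 and 0.62 in Plasmax, with 15 reads in the 3 Plasmax libraries together and 106 in EMEM. ORC6 had log2 fold changes of −1.05, −1.13 and −1.66 in the same order of media. MCM3 had the smallest change of the group against EMEM, at 288, 279 and 284 CPM in the EMEM libraries, 309, 236 and 143 in LGDMEM, 304, 264 and 265 in HGDMEM and 161, 148 and 131 in Plasmax. Its EMEM and HGDMEM libraries were all above Plasmax, LGDMEM 3 lay among the Plasmax values, and the log2 fold change was −0.95 (SE 0.19, adjusted p = 0.00147) against EMEM. The other helicase subunits MCM4, MCM5 and MCM6 had log2 fold changes of −1.18, −1.22 and −1.61 against EMEM, and all were also called against LGDMEM and HGDMEM. By edgeR with 1 library left out, the call was lost for MCM3 against LGDMEM without LGDMEM 1, LGDMEM 2, Plasmax 2 or Plasmax 3 (adjusted p = 0.0501 to 0.149), MCM4 against LGDMEM without LGDMEM 1 or Plasmax 3 (adjusted p = 0.0567 to 0.0948) and MCM6 against LGDMEM without LGDMEM 1 or Plasmax 3 (adjusted p = 0.0622 to 0.0717). ORC1 was also not called against EMEM with limma voom (adjusted p = 0.102), against LGDMEM with limma voom (adjusted p = 0.0625) and against HGDMEM with limma voom (adjusted p = 0.105). MCM3 was also not called against LGDMEM in a fit to the 2 media compared (adjusted p = 0.0603).

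In EMEM and Plasmax, MCM7 varied more between libraries than the other MCM subunits, at 105, 87.6 and 200.1 CPM in the EMEM libraries, 97.4, 64.9 and 38.5 in LGDMEM, 114, 113 and 74.2 in HGDMEM and 39.5, 91.8 and 49.8 in Plasmax. Plasmax 2 lay within the range of the EMEM libraries, and EMEM 3 was about as high as EMEM 1 and EMEM 2 together. MCM7 was called against EMEM at −1.11 (SE 0.34, adjusted p = 0.024), but not against LGDMEM (−0.14) or HGDMEM (−0.74). Without EMEM 3 its log2 fold change was −0.67 (adjusted p = 0.187 by edgeR), and it also lost its call without Plasmax 1 (adjusted p = 0.111) or Plasmax 3 (adjusted p = 0.0986). MCM7 was also not called against EMEM with DESeq2 (adjusted p = 0.0747).

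Promoters of 39 of the 45 genes were matched in the RefSeq table (GRCh38.p14), which holds 250 bases before and 50 bases after each start. The E2F site was searched as the words TTTCCCGC, TTTCGCGC, TTTGCCGC and TTTGGCGC on both strands, and a promoter was counted if it held at least 1, overlapping words included. MCM4, MCM5, GINS4, POLD3, RPA2 and RPA3 were not matched. Such a word stood in 18 of the 39 promoters (46.2%), in 5.72% of the 8672 promoters of measured genes and in 3.33% of all 27305 promoters. Origin licensing genes held it in 6 of 8 promoters, and 4 of these (MCM2, MCM3, MCM6 and MCM7) held at least 2 words, some of which overlap. None of the 21 promoters without a word is shown. The windows below run up to the base before the start, 5′ to 3′ on the gene's own strand, with the E2F words in capitals, and were picked from the genes that hold a word and whose values are described here: chr16:88803729-88803788 (plus strand) for CDT1, chr2:135876444-135876603 (minus strand) for MCM6, chr7:100101398-100101597 (minus strand) for MCM7, chr20:5126623-5126702 (minus strand) for PCNA, chr11:65261882-65261961 (plus strand) for POLA2 and chr18:657593-657652 (plus strand) for TYMS.
CDT1: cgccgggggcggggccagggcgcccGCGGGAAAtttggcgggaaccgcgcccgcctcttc
MCM6: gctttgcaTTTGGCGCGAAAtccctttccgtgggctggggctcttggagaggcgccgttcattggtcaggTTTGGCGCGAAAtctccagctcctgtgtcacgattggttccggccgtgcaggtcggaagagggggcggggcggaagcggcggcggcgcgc
MCM7: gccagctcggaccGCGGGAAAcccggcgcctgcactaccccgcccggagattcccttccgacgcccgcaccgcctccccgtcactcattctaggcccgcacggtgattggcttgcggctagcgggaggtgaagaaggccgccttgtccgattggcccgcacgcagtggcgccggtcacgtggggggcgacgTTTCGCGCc
PCNA: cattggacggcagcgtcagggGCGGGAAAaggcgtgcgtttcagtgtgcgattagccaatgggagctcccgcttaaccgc
POLA2: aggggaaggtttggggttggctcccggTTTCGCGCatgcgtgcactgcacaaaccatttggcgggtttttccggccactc
TYMS: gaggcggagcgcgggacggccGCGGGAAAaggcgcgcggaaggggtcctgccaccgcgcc
In MCM6 each of the 2 runs of capitals holds 2 overlapping words, 1 on each strand, and they begin 152 and 90 bases before the start. In TYMS, PCNA and CDT1 the same word stands 39, 59 and 35 bases before the start.

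For comparison, mitosis genes are known for another promoter element, the cell cycle genes homology region (CHR), searched as TTTGAA and TTCGAA on both strands. It stood in 13 of 17 matched mitosis promoters (76.5%) and in 2 of the 39 replication promoters (5.13%), while 11.1% of measured genes and 16.6% of all promoters held it. E2F words stood in 2 of the 17 mitosis promoters (11.8%). The NF-Y box, searched as CCAAT on both strands, stood in 22 of the 39 (56.4%), in 14 of the 17 mitosis promoters (82.4%), in 37.04% of measured genes and in 35.7% of all promoters. Windows of 80 bases of 2 mitosis genes show the contrast, with CHR words in capitals, from chr15:59105066-59105145 (plus strand) for CCNB2 and chr1:43358901-43358980 (plus strand) for CDC20.
CCNB2: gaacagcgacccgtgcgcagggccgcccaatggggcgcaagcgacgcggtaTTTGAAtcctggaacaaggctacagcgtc
CDC20: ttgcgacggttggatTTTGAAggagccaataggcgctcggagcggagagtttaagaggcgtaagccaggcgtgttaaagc
Among replication genes, the 18 with an E2F word had a median log2 fold change of −1.46 between Plasmax and EMEM (−3.004 to −0.78, 17 called), and the 21 without one had −1.31 (−2.91 to 0.55, 16 called). A word match is a description of these letters and not of a bound site.

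**Figure D2:**
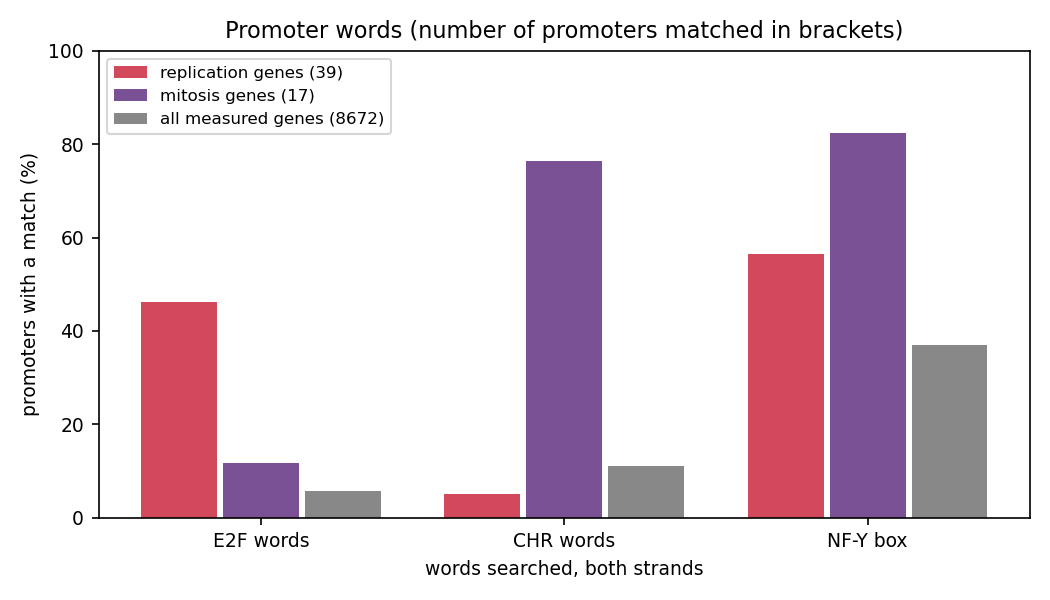
Share of promoters that hold at least 1 match to the E2F words, the CHR words or the NF-Y box, in percent, for the replication genes (red), mitosis genes (purple) and all measured genes with a matched promoter (grey). E2F words were in 46.2% of replication promoters and CHR words in 76.5% of mitosis promoters.

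All 6 genes of helicase activation were lower in Plasmax than in EMEM and HGDMEM, and 5 were lower than in LGDMEM. MCM10, which helps convert the loaded helicase into an active fork, was at 37.1, 17.1 and 18.7 CPM in the EMEM libraries, 34.3, 17.1 and 14.04 in LGDMEM, 28.1, 26.3 and 15.9 in HGDMEM and 6.59, 5.497 and 5.79 in Plasmax. The Plasmax libraries lay within a narrow range below all others, with a log2 fold change of −2.02 (SE 0.37, adjusted p = 0.00083) against EMEM. The GINS subunits GINS1, GINS2 and GINS4 had log2 fold changes of −1.59, −1.93 and −1.80 against EMEM, and CDC45, which completes the active helicase, −1.48. GINS3 had the smallest change, at 40.05, 32.2 and 33.7 CPM in the EMEM libraries, 32.1, 22.8 and 9.96 in LGDMEM, 34.5, 31.3 and 22.8 in HGDMEM and 10.9, 11.9 and 17.4 in Plasmax. LGDMEM 3 was below all 3 Plasmax libraries for GINS3, which was called against EMEM at −1.39 (SE 0.31, adjusted p = 0.00363) and HGDMEM (−1.14) but not LGDMEM (−0.68). With 1 library removed, edgeR no longer called CDC45 against LGDMEM without LGDMEM 1, LGDMEM 2, Plasmax 2 or Plasmax 3 (adjusted p = 0.0577 to 0.182) and GINS1 against LGDMEM without LGDMEM 1 (adjusted p = 0.0773). Removing 1 library ended the edgeR call of GINS3 against HGDMEM without Plasmax 1 (adjusted p = 0.051). CDC45 was also not called against LGDMEM with limma voom (adjusted p = 0.0692) or in a fit to the 2 media compared (adjusted p = 0.0702).

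The polymerase and primase genes were less uniform, with 3 of 9 called lower than in each of the other media: the polymerase alpha accessory subunit POLA2 (−1.91, −1.80 and −2.37 against EMEM, LGDMEM and HGDMEM), the catalytic subunit of polymerase epsilon POLE (−1.38, −1.54 and −1.24) and its accessory subunit POLE2 (−3.004, −3.24 and −2.59). POLE2 was at 5.34, 7.30 and 6.94 CPM in the EMEM libraries, 16.2, 4.32 and 2.94 in LGDMEM, 8.25, 2.65 and 3.81 in HGDMEM and 0.62, 1.52 and 0.21 in Plasmax. It had 12 reads in Plasmax and 96 in EMEM, so its log2 fold change of −3.004 (SE 0.75, adjusted p = 0.0074) against EMEM is imprecise. Like ORC1, POLE2 reached 2.51 CPM only in libraries of the other media, so its presence among the genes tested rests on them. POLD2, an accessory subunit of polymerase delta, was at 38.4, 30.4 and 46.7 CPM in the EMEM libraries, 42.7, 30.7 and 28.98 in LGDMEM, 25.1, 32.6 and 35.5 in HGDMEM and 24.1, 30.3 and 29.8 in Plasmax. Its EMEM libraries were all above those of Plasmax, EMEM 2 only slightly (30.4 against 30.3 CPM in Plasmax 2), while LGDMEM and HGDMEM overlapped them. The log2 fold change of POLD2 of −0.45 (SE 0.21, adjusted p = 0.143) against EMEM was not called. By edgeR with 1 library left out, the call was lost for POLA2 against LGDMEM without LGDMEM 1 (adjusted p = 0.055) and POLE2 against LGDMEM without LGDMEM 1 (adjusted p = 0.0524). With 1 library removed, edgeR no longer called POLE2 against HGDMEM without HGDMEM 1, Plasmax 1 or Plasmax 3 (adjusted p = 0.0555 to 0.0943). POLA2 was also not called against EMEM with limma voom (adjusted p = 0.0842) and against LGDMEM with limma voom (adjusted p = 0.0927). POLE2 was also not called against LGDMEM with limma voom (adjusted p = 0.0594) and against HGDMEM with limma voom (adjusted p = 0.0861).

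The catalytic subunit of polymerase alpha POLA1 was not called (−0.78, −0.33 and −0.54 against EMEM, LGDMEM and HGDMEM), nor were POLD1, the catalytic subunit of polymerase delta (−1.27, −0.46 and −1.41), POLD3 (−0.63, −0.82 and −1.07) and the primase catalytic subunit PRIM1 (−0.71, 0.15 and −1.04). PRIM2, the large primase subunit, was the only one of the 45 genes with a positive log2 fold change against EMEM and HGDMEM, at 0.55, 0.49 and 0.50, and was not called. Its groups overlapped, at 7.003, 4.93 and 15.3 CPM in Plasmax and 8.74, 4.27 and 5.68 in EMEM. The SE against EMEM was 0.66 for PRIM1, 0.57 for POLD1, 0.55 for POLD3 and 0.50 for PRIM2, all with a mean below 10 CPM in each medium. POLD1 was called against HGDMEM in 2 alternative settings, with DESeq2 (adjusted p = 0.0427) and without Plasmax 2 (adjusted p = 0.0372). POLA1 was called against EMEM in 2 alternative settings, in a fit to the 2 media compared (adjusted p = 0.0362) and without LGDMEM 3 (adjusted p = 0.0213). POLA1 (SE 0.30) and POLD2 (SE 0.21) were measured more closely.

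**Figure D3:**
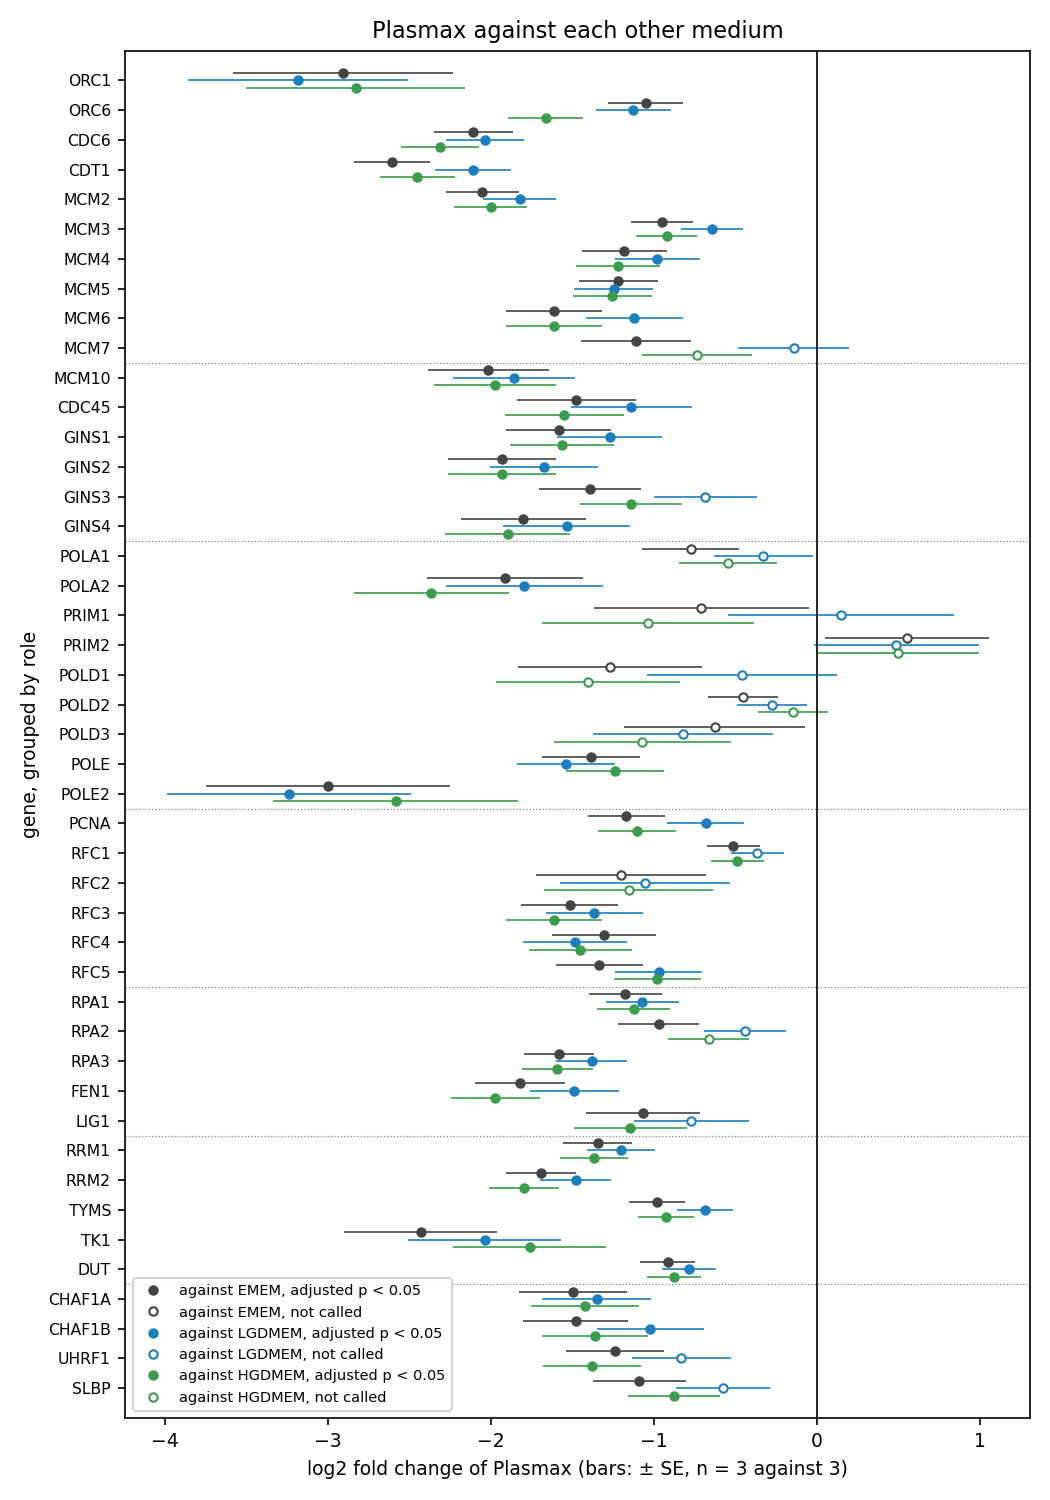
Log2 fold change of Plasmax against EMEM (dark grey), LGDMEM (blue) and HGDMEM (green) for each of the 45 genes, grouped by role from licensing at the top to chromatin assembly at the bottom, with bars of 1 SE and open circles for genes not called. Filled circles lie at or left of −0.49, and the open circles are mostly those of the polymerases, primase and the LGDMEM comparison.

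The sliding clamp and its loader were lower in Plasmax for 5 of 6 genes against EMEM, 4 against LGDMEM and 5 against HGDMEM. PCNA, the clamp that tethers polymerases to DNA, was at 353, 211 and 291 CPM in the EMEM libraries, 309.7, 179.7 and 121 in LGDMEM, 295, 273 and 249 in HGDMEM and 132, 124 and 124 in Plasmax. The Plasmax libraries were close to each other and below all EMEM and HGDMEM libraries, while LGDMEM 3 was slightly below all 3 Plasmax libraries. PCNA was called at −1.17 (SE 0.24, adjusted p = 0.0018) against EMEM and −1.10 against HGDMEM. Against LGDMEM its log2 fold change was −0.68 (SE 0.24, adjusted p = 0.0477), a call lost in 14 of 22 alternative settings, and without LGDMEM 1 it was −0.25 (adjusted p = 0.407).

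Of the clamp loader subunits, RFC3 had the largest change against EMEM, at 26.9, 18.9 and 15.1 CPM in the EMEM libraries, 25.2, 14.5 and 15.2 in LGDMEM, 20.4, 22.01 and 22.4 in HGDMEM and 8.24, 5.12 and 7.85 in Plasmax. Its Plasmax libraries were below all others (log2 fold change −1.52 (SE 0.30, adjusted p = 0.00127) against EMEM). RFC4 and RFC5 had log2 fold changes of −1.31 and −1.34 against EMEM. RFC2 was similar in size at −1.20 (SE 0.52, adjusted p = 0.108) but was not called, with overlapping libraries. RFC1, the large subunit, had the smallest change, at 72.8, 78.1 and 83.5 CPM in the EMEM libraries, 75.7, 72.1 and 64.1 in LGDMEM, 67.5, 83.3 and 80.2 in HGDMEM and 43.05, 54.2 and 67.2 in Plasmax. Plasmax 3 lay within the LGDMEM values, and RFC1 was called at −0.51 (SE 0.16, adjusted p = 0.0302) against EMEM, with this call lost without EMEM 2, EMEM 3, Plasmax 1 or Plasmax 2 (adjusted p between 0.0636 and 0.148). Removing 1 library ended the edgeR call of RFC5 against LGDMEM without LGDMEM 1 or Plasmax 3 (adjusted p = 0.0516 to 0.0946). By edgeR with 1 library left out, the call was lost for RFC1 against HGDMEM without HGDMEM 2, HGDMEM 3, Plasmax 1 or Plasmax 2 (adjusted p = 0.0807 to 0.158) and RFC5 against HGDMEM without HGDMEM 3 (adjusted p = 0.0595).

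Genes that bind single-stranded DNA and join lagging-strand fragments were called lower in 5 of 5 cases against EMEM, 3 against LGDMEM and 4 against HGDMEM. FEN1, the nuclease that trims RNA primers from Okazaki fragments, was at 209, 122 and 161 CPM in the EMEM libraries, 212, 98.1 and 79.9 in LGDMEM, 193, 166 and 185 in HGDMEM and 53.96, 43.98 and 40.5 in Plasmax, lower in every Plasmax library than elsewhere, with a log2 fold change of −1.82 (SE 0.27, adjusted p = 0.000128) against EMEM. The replication protein A subunits RPA1 and RPA3 had log2 fold changes of −1.18 and −1.58 against EMEM. RPA2 had the smallest of the group, at 56.3, 31.1 and 33.7 CPM in the EMEM libraries, 34.3, 27.1 and 22.4 in LGDMEM, 31.9, 33.1 and 32.6 in HGDMEM and 23.9, 23.1 and 14.5 in Plasmax. It was called against EMEM at −0.97 (SE 0.25, adjusted p = 0.00878) but not against LGDMEM (−0.44) or HGDMEM (−0.66), and the call against EMEM was lost without EMEM 1 (adjusted p = 0.0771) or Plasmax 3 (adjusted p = 0.0518). The ligase LIG1 had −1.07 (SE 0.35, adjusted p = 0.0353) against EMEM and lost its call without EMEM 1, EMEM 3, Plasmax 2 or Plasmax 3 (adjusted p between 0.069 and 0.137). With 1 library removed, edgeR no longer called LIG1 against HGDMEM without HGDMEM 1, HGDMEM 3, Plasmax 2 or Plasmax 3 (adjusted p = 0.0513 to 0.0918). LIG1 was also not called against EMEM with limma voom (adjusted p = 0.0509).

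All 5 enzymes of deoxynucleotide supply were lower in Plasmax than in each of the other media, and for all 5 no Plasmax library overlapped the other 9. RRM2, the S phase subunit of ribonucleotide reductase, was at 316, 235 and 248 CPM in the EMEM libraries, 304, 252 and 133 in LGDMEM, 313, 263 and 282 in HGDMEM and 91.2, 83.6 and 71.7 in Plasmax. Its log2 fold changes were −1.69 (SE 0.22, adjusted p = 2.5e-05) against EMEM, −1.48 against LGDMEM and −1.80 against HGDMEM. RRM1, the large catalytic subunit of the same enzyme, was at 91.5, 78.1 and 73.2 CPM in the EMEM libraries, 96.4, 70.96 and 52.8 in LGDMEM, 95.6, 72.00 and 78.7 in HGDMEM and 26.4, 29.2 and 39.9 in Plasmax. It had log2 fold changes of −1.35, −1.20 and −1.37. TYMS, which makes thymidylate from deoxyuridylate, was at 219, 189 and 204 CPM in the EMEM libraries, 222, 162 and 115 in LGDMEM, 201, 186 and 202 in HGDMEM and 107, 107 and 96.1 in Plasmax. The fall was smaller than that of RRM2 in each comparison, with log2 fold changes of −0.98, −0.68 and −0.93 in the same order, although the difference between the genes was not tested.

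TK1, the thymidine kinase of the salvage route, was the most variable of the 5, at 123, 75.1 and 33.9 CPM in the EMEM libraries, 94.1, 42.5 and 40.5 in LGDMEM, 37.1, 23.8 and 85.4 in HGDMEM and 14.01, 18.2 and 10.5 in Plasmax. HGDMEM 2 came closest to Plasmax, and the log2 fold change was −2.43 (SE 0.47, adjusted p = 0.00119) against EMEM, −2.04 against LGDMEM and −1.76 (SE 0.47, adjusted p = 0.00926) against HGDMEM. The HGDMEM call was lost without HGDMEM 3 (adjusted p = 0.0935). DUT, which removes dUTP from the nucleotide pool, was at 100.5, 79.7 and 80.99 CPM in the EMEM libraries, 94.4, 85.7 and 58.2 in LGDMEM, 84.02, 84.9 and 85.2 in HGDMEM and 48.4, 44.2 and 45.7 in Plasmax. It was steadier between libraries and had log2 fold changes of −0.92, −0.78 and −0.88. Removing 1 library ended the edgeR call of TYMS against LGDMEM without LGDMEM 1 (adjusted p = 0.061). TK1 was also not called against HGDMEM with limma voom (adjusted p = 0.0564).

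The 4 genes of chromatin assembly and histone supply were lower than in EMEM and HGDMEM in all 4 cases and lower than in LGDMEM in 2. CHAF1A, the large subunit of the chromatin assembly factor that deposits new histones at the fork, was at 31.6, 21.9 and 31.6 CPM in the EMEM libraries, 40.9, 24.8 and 11.3 in LGDMEM, 26.1, 30.5 and 23.9 in HGDMEM and 9.47, 11.4 and 9.10 in Plasmax. Only LGDMEM 3 reached the Plasmax values, and the log2 fold change was −1.50 (SE 0.33, adjusted p = 0.00332) against EMEM. CHAF1B, another subunit of that factor, had −1.48, −1.02 and −1.36 against EMEM, LGDMEM and HGDMEM. UHRF1, which carries DNA methylation through replication, had −1.24, −0.83 and −1.38 and was not called against LGDMEM. SLBP, the protein that binds the histone mRNA stem-loop, was at 90.5, 59.6 and 53.2 CPM in the EMEM libraries, 65.6, 46.4 and 30.3 in LGDMEM, 83.6, 42.04 and 49.5 in HGDMEM and 25.5, 37.3 and 32.2 in Plasmax. Its LGDMEM 3 value was within the Plasmax range, and it was called against EMEM (−1.09 (SE 0.28, adjusted p = 0.01)) but not LGDMEM (−0.58). The EMEM call of SLBP was lost without EMEM 1 (adjusted p = 0.07) or Plasmax 1 (adjusted p = 0.052). By edgeR with 1 library left out, the call was lost for UHRF1 against EMEM without EMEM 1 (adjusted p = 0.0553). With 1 library removed, edgeR no longer called CHAF1A against LGDMEM without LGDMEM 1 (adjusted p = 0.0635) and CHAF1B against LGDMEM without LGDMEM 1, LGDMEM 2, Plasmax 1, Plasmax 2 or Plasmax 3 (adjusted p = 0.0578 to 0.159). Removing 1 library ended the edgeR call of SLBP against HGDMEM without HGDMEM 1, Plasmax 1 or Plasmax 3 (adjusted p = 0.0713 to 0.207). CHAF1B was also not called against LGDMEM with limma voom (adjusted p = 0.0904) or in a fit to the 2 media compared (adjusted p = 0.0711).

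Some genes that were not called passed with 1 library left out, by edgeR. Without LGDMEM 3, those called lower in Plasmax than in LGDMEM included GINS3 (−1.03, adjusted p = 0.00796), RFC2 (−1.49, adjusted p = 0.0278), LIG1 (−1.11, adjusted p = 0.0171), UHRF1 (−1.15, adjusted p = 0.00317) and SLBP (−0.82, adjusted p = 0.0429). UHRF1 was also called against LGDMEM without EMEM 1 (−0.83, adjusted p = 0.043), and RFC1 without Plasmax 3 (−0.54, adjusted p = 0.0399). RFC2 was called against EMEM without EMEM 2 (−1.58, adjusted p = 0.038) or LGDMEM 3 (−1.20, adjusted p = 0.0476), and against HGDMEM without LGDMEM 3 (−1.16, adjusted p = 0.0483). MCM7 was called against HGDMEM without Plasmax 2 (−1.17, adjusted p = 0.0264). RPA2 lay close to the threshold against HGDMEM (adjusted p = 0.0549 with edgeR on all libraries), and it passed without EMEM 1, EMEM 2, LGDMEM 1 or LGDMEM 3 and with DESeq2 or limma voom (adjusted p = 0.0236 to 0.05 over these, another scaling, the replicate block and a fit to the 2 media).

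Among EMEM, LGDMEM and HGDMEM no replication gene was called in any of the 3 comparisons, by edgeR, DESeq2 or limma voom. Of all genes, 0.0731% were called for LGDMEM against EMEM (0.0548% lower, 0.0183% higher). The share was 0.164% for HGDMEM against EMEM (0.128% lower, 0.0365% higher) and 0.0640% for HGDMEM against LGDMEM (0.0457% lower, 0.0183% higher). At an unadjusted p below 0.05, 4 of the 45 genes passed for LGDMEM against EMEM (CDT1, MCM7, GINS3 and RPA2), and ORC6 alone passed in each of the comparisons of HGDMEM. Of all genes 7.91% passed for LGDMEM against EMEM, 7.58% for HGDMEM against EMEM and 7.86% for HGDMEM against LGDMEM. The median log2 fold change of the 45 genes was −0.23 for LGDMEM against EMEM, −0.02 for HGDMEM against EMEM and 0.25 for HGDMEM against LGDMEM. That of all genes was −0.0002, 0.001 and −0.001 in the same order. For the 45 genes, the sign of the HGDMEM against EMEM median changed with the setting, as it was 0.02 with library-size scaling. The LGDMEM against EMEM median was −0.03 without LGDMEM 3 and −0.61 without LGDMEM 1, and that of HGDMEM against LGDMEM was 0.04 and 0.56 in the same order. Without LGDMEM 1, PCNA (−0.92, adjusted p = 0.0271) and FEN1 (−0.88, adjusted p = 0.0405) were called lower in LGDMEM than in EMEM, and both were called higher in HGDMEM than in LGDMEM (0.85 and 1.03).

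Within a medium, many replication genes had their lowest value in the same library. In LGDMEM the summed level was 3612 CPM in LGDMEM 1, 2565 in LGDMEM 2 and 1676 in LGDMEM 3, so LGDMEM 1 was 2.15 times LGDMEM 3. LGDMEM 3 held the lowest value of its medium for 42 of the 45 genes, where it was lowest for 36.1% of all genes, and LGDMEM 1 the highest for 41 (33.7% of all genes). In EMEM the sums were 3653, 2728 and 3184 CPM for libraries 1, 2 and 3, EMEM 2 being lowest for 33 genes (33.9% of all genes) and EMEM 1 highest for 30 (33.1%). In HGDMEM they were 3494, 2913 and 3003 CPM, HGDMEM 2 being lowest for 24 (34.5% of all genes) and HGDMEM 1 highest for 29 (32.7%). The Plasmax libraries differed less, at 1285, 1308 and 1195 CPM. In LGDMEM and EMEM, mitosis genes had their lowest library in the same places, since LGDMEM 3 was lowest of its medium for 21 of 22 and EMEM 2 for 18. HGDMEM was more divided, with HGDMEM 2 lowest for 12 mitosis genes and HGDMEM 3 for 9. The genes are not independent of each other.

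**Figure D4:**
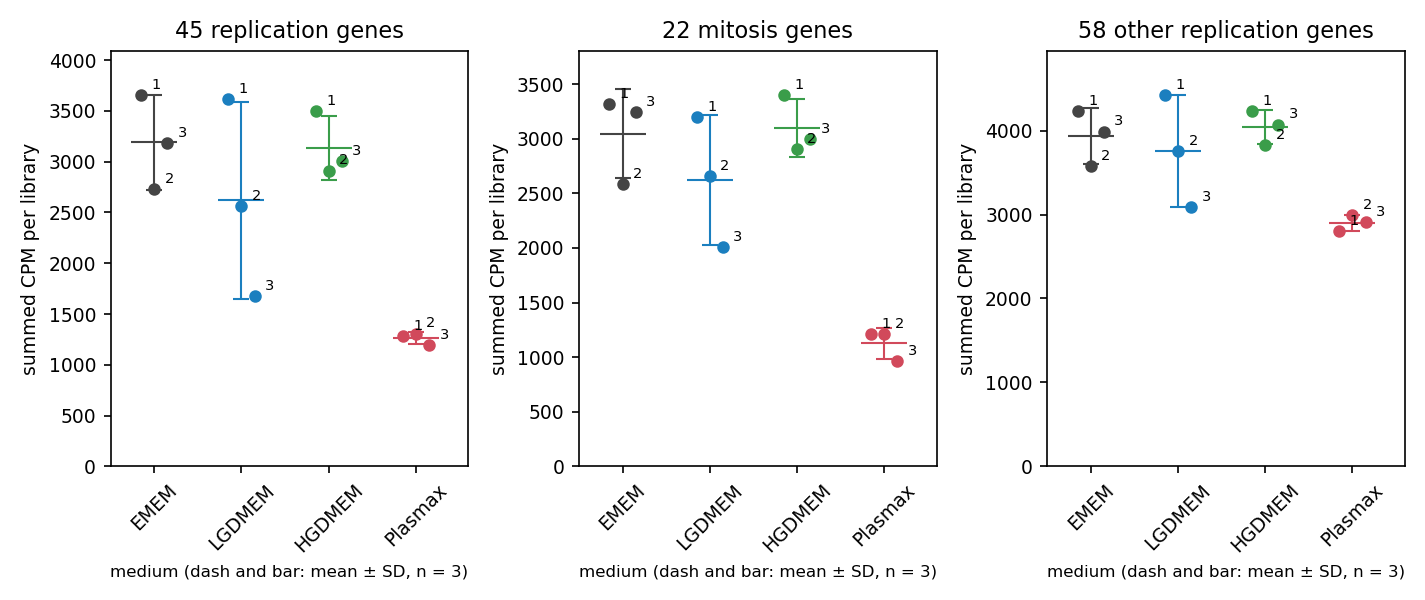
Summed CPM per library of the 45 replication genes (left), 22 mitosis genes (middle) and 58 other genes linked to replication (right), with the replicate number beside each point and the mean ± SD of 3 libraries as a dash and bar. In each panel the 3 Plasmax libraries are below all others, and in the left panel LGDMEM 3 at 1676 CPM is the nearest to them.

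Ratios of 2 genes within a library do not depend on library scaling, and 8 were compared between the 3 Plasmax and the 9 other libraries, a design in which the smallest p is 0.00909. The pairs were chosen with earlier results of these data known, which the p-values do not take into account. RRM2B, the ribonucleotide reductase subunit induced by p53 and used outside S phase, rose in Plasmax while RRM2 fell, at 33.4, 48.9 and 49.8 CPM in Plasmax against 15.8, 18.3 and 15.4 in EMEM, a log2 fold change of 1.41 (SE 0.23, adjusted p = 0.000251). There were 2.73, 1.71 and 1.44 RRM2 reads per RRM2B read in the Plasmax libraries and 11.3 to 30.1 (median 18.05) in the others (log2 difference −3.20, exact permutation test, two-sided, p = 0.00909, adjusted p = 0.0242 over 8 ratios). The ratio of CDT1 to its inhibitor geminin, GMNN, was 0.56, 0.54 and 0.72 in Plasmax and 0.91 to 1.41 (median 1.05) elsewhere (log2 difference −0.87, exact permutation test, two-sided, p = 0.00909, adjusted p = 0.0242 over 8 ratios), and GMNN itself fell by 1.702 on the log2 scale against EMEM. The ratio of ORC1 to ORC2, the latter a subunit of the complex that was not called (log2 fold change 0.06 (SE 0.18, adjusted p = 0.86)), was 0.02, 0.02 and 0.01 in Plasmax and 0.05 to 0.28 (median 0.17) elsewhere (log2 difference −2.85, exact permutation test, two-sided, p = 0.00909, adjusted p = 0.0242 over 8 ratios). All 3 Plasmax libraries were below all others for these 3 ratios. ORC1 had few reads, 15 in the 3 Plasmax libraries together, so the size of its ratio is imprecise. Its presence among the genes tested also rests on the other media, which favours a low ratio in Plasmax.

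The other 5 ratios did not pass. RFC4 to RFC1 had a log2 difference −0.87, exact permutation test, two-sided, p = 0.0273, adjusted p = 0.0545 over 8 ratios, and it passed without LGDMEM 3 (log2 difference −0.98, adjusted p = 0.0242 by the exact permutation test). POLE2 to POLE had a log2 difference of −1.64 (adjusted p = 0.0727, exact permutation test), with few POLE2 reads. RRM2 to RRM1 had −0.32 (adjusted p = 0.218, exact permutation test), with 3.46, 2.86 and 1.80 RRM2 reads per RRM1 read in Plasmax and 2.53 to 3.65 (median 3.38) elsewhere. PRIM1 to PRIM2 (−0.76, adjusted p = 0.322) and CHAF1B to CHAF1A (0.10, adjusted p = 0.764) also missed the threshold in the exact permutation test. Leaving out any 1 Plasmax library ends the call of each of the first 3 ratios, with an adjusted p by the exact permutation test of 0.0727 without Plasmax 2 and of 0.097 without Plasmax 1 or Plasmax 3. With fewer Plasmax libraries the smallest p that this test can give is larger. The loss therefore cannot tell a weaker difference from the smaller design.

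**Figure D5:**
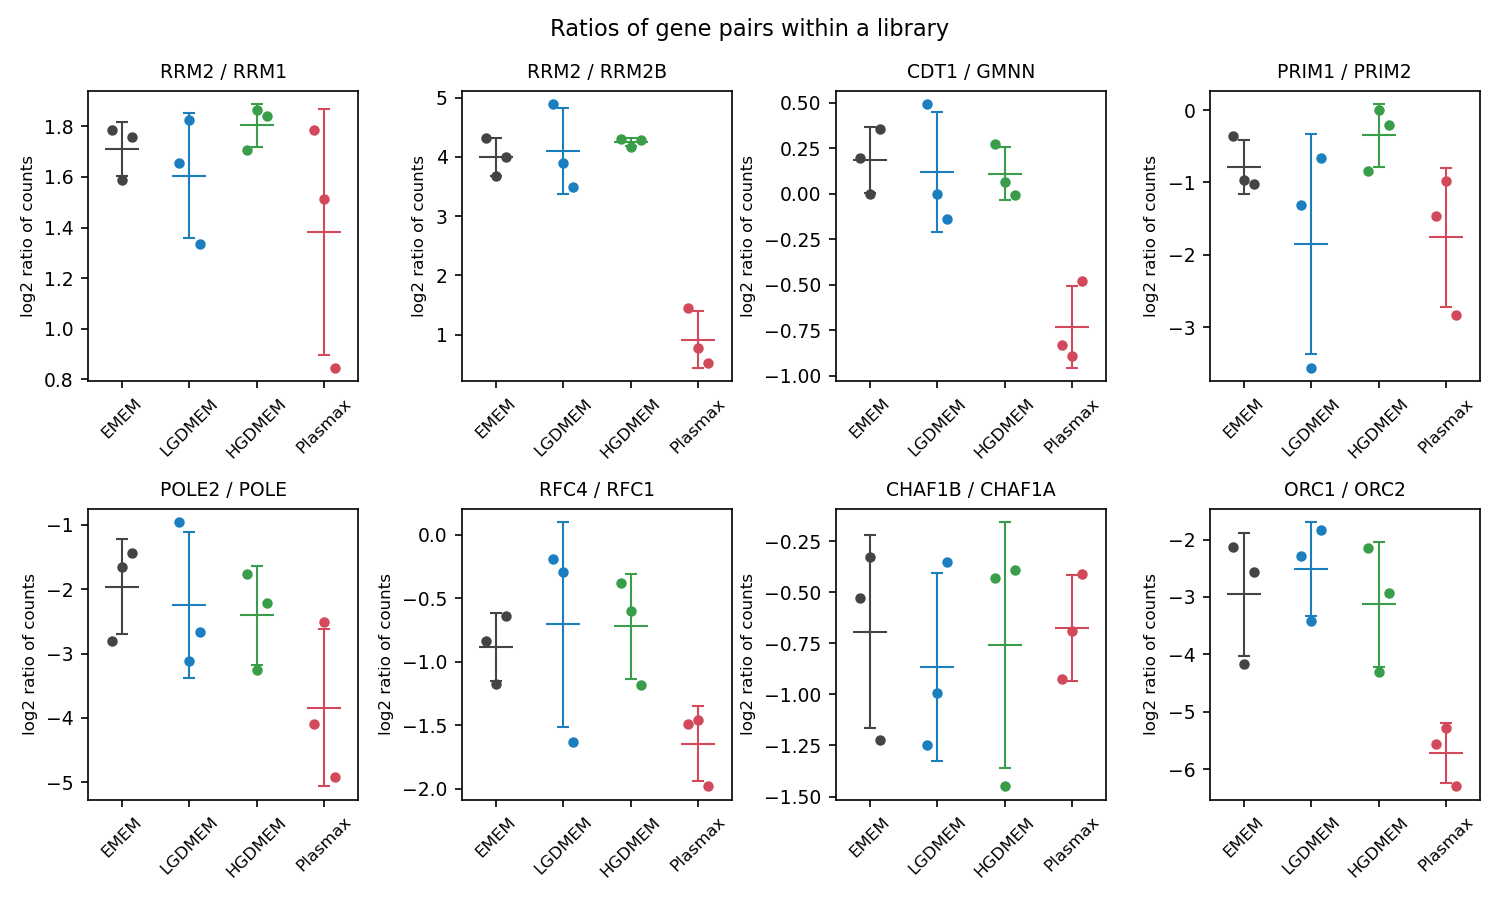
Log2 ratio of the raw counts of 2 genes (0.5 added to each) in every library, by medium, with the mean ± SD of 3 libraries as a dash and bar, 1 panel per ratio and a separate vertical scale in each. The Plasmax points are below all others for RRM2 / RRM2B, CDT1 / GMNN and ORC1 / ORC2, and the groups overlap for the other 5 ratios.

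A further 58 genes linked to replication were measured. Of these 17 were lower and 1 higher in Plasmax than in EMEM, their median log2 fold change being −0.53, beside 12.1% lower and 10.0% higher of all genes. Against LGDMEM 16 were lower and 1 higher (11.7% and 9.48% of all genes), and against HGDMEM 21 were lower and 1 higher (14.1% and 12.8%). Among other licensing and firing factors 3 of 12 were called lower and 0 higher than in EMEM. Those named by rule were GMNN and RECQL4, a helicase of origin firing, at −1.70 and −1.63. The remaining origin recognition subunits ORC3, ORC4 and ORC5 were at −0.70, −0.03 and 0.25 and were not called. Of other fork and lagging-strand genes 7 of 19 were called lower and 0 higher, including the topoisomerase TOP2A at −1.48, MCM8 at −0.92 and the ribonuclease subunit RNASEH2A at −0.84. Of other deoxynucleotide genes 4 of 15 were called lower and 1 higher, the latter being RRM2B, and the thymidylate kinase DTYMK (−1.21) and the nucleotide pyrophosphatase DCTPP1 (−0.84) were among those lower. Of other chromatin replication genes 3 of 12 were called lower and 0 higher, including the histone chaperone ASF1B at −2.15 and the remodeller HELLS at −0.71. DNMT1, the maintenance methyltransferase that works with UHRF1, was at −0.07 (SE 0.17, adjusted p = 0.812) and was named, like ORC3 to ORC5, after its values were seen.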

How the data were processed

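Counts per gene in 12 libraries were deposited by the authors as 1 table of raw counts. Per the submitters' processing notes, the tools were featureCounts 1.6.3, limma 3.40.6, STAR 2.7.5b, FastQC 0.72 and cutadapt 1.16, on build hg19 (GRCh37). Of 11546 rows, 601 without a symbol (2.92 to 3.71% of counts per library) were left out. The 10945 rows kept are called genes here, although 5 symbols stood on 2 rows. The rule of a low-count filter is not given in the sources used here, and the third highest CPM of a gene was at least 2.51. filterByExpr removed 0 genes.

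Counts were scaled by TMM and tested with edgeR 4.0.16 (R 4.3.3) in a fit to all 12 libraries with medium as the term, with Benjamini-Hochberg adjustment over 10945 genes, and the SE was computed from the test statistic. Ratios used raw counts plus 0.5. Alternatives were scaling by library size, RLE or the upper quartile, a mean of at least 5 CPM, no filter, DESeq2 1.42.0, limma voom (limma 3.58.1), a replicate block, a fit to 2 media, an adjusted p below 0.01 and leaving out each library. The script was tested on simulated data. Members, lists and tests were chosen with earlier results of these data known. Values per library are given for the genes with the largest and smallest log2 fold change against EMEM in each role group and for MCM2, CDC6, PCNA, RRM1, RRM2, TYMS and TK1. Of each other list up to 3 called genes with the largest change and a mean of at least 10 CPM are named. No 2 libraries agree within sampling noise. Reads of QuantSeq count 3′ ends, so isoforms were not resolved.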

Additional observations from a re-analysis of the deposited data

How the results depend on the processing

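The number of replication genes called lower in Plasmax was 34 to 39 against EMEM, 23 to 32 against LGDMEM and 30 to 39 against HGDMEM over other scalings, filters, tests, thresholds and sample choices, and 28 to 36 over the 4 media. Leaving out 1 library gave 34 to 40, 19 to 36, 32 to 38 and 27 to 37. Of the 38 calls against EMEM 30 held in every setting in which the gene was tested (22 settings, 21 for POLE2), as did 18 of 31 against LGDMEM and 28 of 36 against HGDMEM, and none of the fold changes called there changed sign. Between the other media leaving out 1 library gave 0 to 2 calls for LGDMEM against EMEM and for HGDMEM against LGDMEM, and 0 for HGDMEM against EMEM. The log2 difference of the ratios, leaving out 1 library, was −3.46 to −3.002 for RRM2 to RRM2B, −0.999 to −0.79 for CDT1 to GMNN, −3.07 to −2.56 for ORC1 to ORC2, −0.98 to −0.70 for RFC4 to RFC1, −0.53 to −0.06 for RRM2 to RRM1, −1.15 to −0.22 for PRIM1 to PRIM2, −2.30 to −1.09 for POLE2 to POLE and −0.04 to 0.22 for CHAF1B to CHAF1A, the last turning negative (-0.0356) without Plasmax 3. The cause was not tested. At an adjusted p below 0.01 the number of all genes called was 1290, 1254 and 1711 against EMEM, LGDMEM and HGDMEM, where it was 2417, 2321 and 2947 at 0.05. DESeq2 called 65 genes of all for LGDMEM against EMEM, 68 for HGDMEM against EMEM and 55 for HGDMEM against LGDMEM, where edgeR called 8, 18 and 7, and 2 to 87, 1 to 45 and 4 to 118 with 1 library left out. The stricter filter left PRIM1, POLD1 and POLE2 untested. Media share replicate numbers, but over all genes in no comparison did all 3 same-numbered pairs deviate together (a correlation over 0.1), so they were not treated as paired, and every library correlated best with its own number only for HGDMEM against EMEM and HGDMEM against LGDMEM. Over the 4366 genes with a mean log2 CPM above 5, all 3 correlations did exceed 0.1 in those comparisons (0.186, 0.11 and 0.124 and 0.246, 0.165 and 0.21), but in no comparison with Plasmax. With the replicate number as a block, 38, 32 and 37 replication genes were called against EMEM, LGDMEM and HGDMEM, 0 among the other media and 36 over the 4 media, and of all genes 15, 23 and 15 for LGDMEM against EMEM, HGDMEM against EMEM and HGDMEM against LGDMEM. Low counts limit POLE2, ORC1, PRIM1, PRIM2, POLD1 and POLD3.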

Other observations

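Regulators of S phase moved in both directions in Plasmax. Of 21 measured, 10 were called lower and 4 higher than in EMEM, where 12.1% and 10.0% of all genes were. SKP2, which targets inhibitors of the S phase kinases for degradation, and the transcription factor E2F2 were lower, with log2 fold changes of −1.88 and −1.85. CDKN2B, an inhibitor of the G1 cyclin-dependent kinases, rose from 4.89 ± 2.14 to 48.7 ± 9.77 CPM (SD, n = 3, log2 fold change 3.28). Within the E2F family, E2F1 and its partner TFDP1 were lower (−1.38 and −1.30) while E2F3 and the repressor E2F6 were higher (0.86 and 0.48), these 4 being named after their values were seen.

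Mitosis genes were at 3048 ± 405 CPM in EMEM and 1128 ± 141 CPM in Plasmax when summed (SD, n = 3), a ratio of 2.702 beside 2.53 for the replication genes. In Plasmax 20 of 22 were called lower than in EMEM and 0 higher, at a median log2 fold change of −1.40, and the difference from the replication genes was not tested. UBE2C, CDC20 and TPX2 had log2 fold changes of −1.97, −1.90 and −1.88.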
